A study of Arabidopsis thaliana with 18 samples.

Results

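The Swedish (SW) ecotype of Arabidopsis thaliana, kept for 2 weeks at 4 °C, was compared with SW plants that stayed in the warm. The SW 2-week cold plants grew on soil for 18 days at 22 °C under 12 h of light a day at 100 to 120 µmol m-2 s-1 and then spent 2 weeks at 4 °C under the same photoperiod at about 35 µmol m-2 s-1. The SW warm plants were taken after the 18 days at 22 °C. Whole aerial parts were harvested 4 h after lights on (ZT4), and each group had 3 RNA sequencing libraries. The study set this ecotype beside an Italian (IT) one, each in the warm and after 1 and 2 weeks of cold, with 18 libraries in all. The labels do not say whether the 3 libraries of a group came from separate plants or pools. The cold plants were also 2 weeks older and in dimmer light than the warm plants, so cold, age and light cannot be told apart in this comparison.

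Genes were taken into the comparison when their deposited level was at least 1 FPKM (RNA fragments counted per length of transcript and per size of library) in the SW 2-week cold or the SW warm column, which kept 18522 of the 33557 genes in the table, against 19639 genes with at least 1 FPKM in any of the 6 groups. The lowest gene kept reached 1.00 FPKM in its higher column and the highest one left out 0.999 FPKM. The table holds 1 value per gene and group, combined from the 3 libraries, so the spread between libraries, the read depth and any test of a difference were out of reach. Levels are therefore given as they stand, and each difference is a log2 ratio of (SW 2-week cold FPKM + 1) to (SW warm FPKM + 1), positive where cold is higher. A gene is called higher or lower when that ratio is 1 or more, or -1 or less, which is 2-fold on this scale; no call carries a p-value. The pseudocount of 1 FPKM makes the ratios of genes at low levels smaller than their plain fold.

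Plants that are native to cold winters raise their freezing tolerance when they meet low but not freezing temperatures, a change called cold acclimation. In Arabidopsis the CBF transcription factors, which bind the CRT/DRE element of promoters, switch on a set of cold-regulated (COR) genes whose products protect membranes and proteins and build up sugars. The circadian clock gates the CBF genes by the time of day, and photosynthesis, growth and defence are re-set over days of cold.

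Of the 18425 genes with a ratio, 1265 were higher and 1444 were lower in SW 2-week cold plants, which is 6.87% and 7.84% of them, or 14.7% together. The other 15716 genes stayed within 2-fold, and the median log2 ratio was 0.02. Large differences went mostly upward: a rise of 8-fold or more was seen in 105 genes and a drop of that size in 48, and past 32-fold there were 32 genes up and none down. The ratios ran from -4.94 to 9.38. The weakest genes called stood at 1.00006 and -1.00016, beside uncalled genes at 0.999481 and -0.999903. The split between higher and lower depends on how the columns are scaled. For reference gene scaling, the cold column was divided so that the median ratio of 12 commonly used reference genes became 0 before the pseudocount. Of these, 11 reached 1 FPKM, and the other was close to 0 in both columns but counted in that median. The median over all genes then moved by -0.33, with 618 genes higher against 2429 lower. Genes higher made up 20.3% of those called in place of 46.7%. As deposited, the 11 reference genes with a ratio had a median log2 ratio of 0.30. They ran from -0.23 (GAPC2) to 0.95 (UBC9), none past 2-fold.

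**Figure D1:**
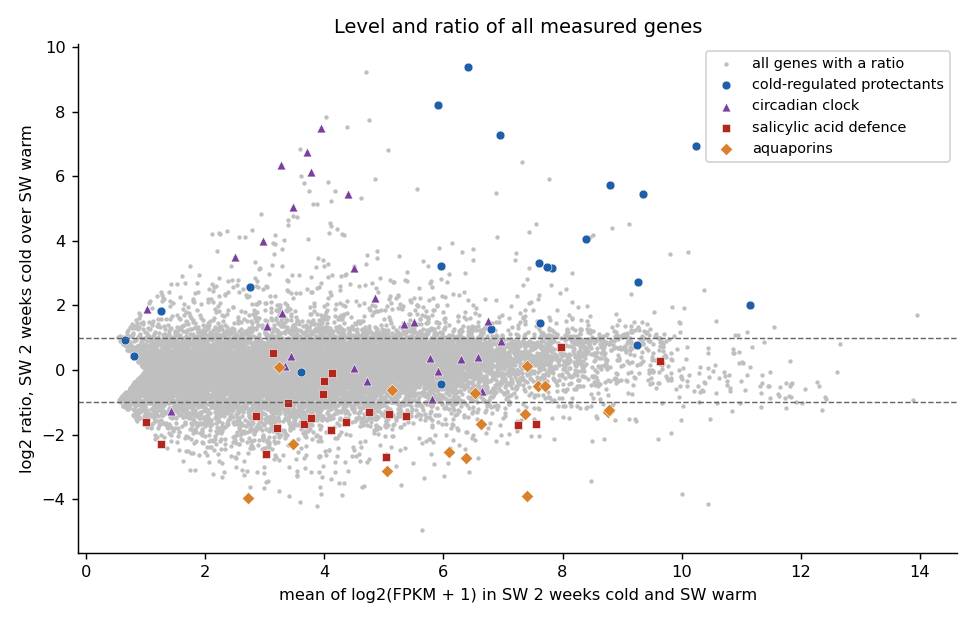
Each point is a gene: the horizontal axis is its mean log2(FPKM + 1) over SW 2-week cold and SW warm plants, the vertical axis its log2 ratio of cold over warm, and dashed lines mark 2-fold. Cold-regulated protectants (circles) and clock genes (triangles) reach ratios above 6, while salicylic acid genes (squares) and aquaporins (diamonds) lie mostly under -1.

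Calls were also counted by level, taken as the higher of the cold and warm FPKM that form the ratio. A gene can thus enter a high class through its own rise in the cold. The pseudocount also limits calls at low levels, so these shares are partly set by the scale. Among genes that reached at least 1000 FPKM in either column, 27.7% were higher and 11.6% lower (155 genes), against 3.51% and 6.84% of the 4135 genes of 1 to 5 FPKM. Short genes were called in both directions more often than long ones: 20.2% of genes under 500 bases were higher and 16.9% lower, against 2.34% and 3.5% of genes of 5000 bases and over. Among the 43 microRNA precursor genes with a ratio, 15 were higher and 7 lower; they are short and are only counted here.

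The plants looked like leaf tissue under both conditions. LHCB3, an antenna protein of leaf chloroplasts, stood at 4069 FPKM in SW 2-week cold plants and 7323 FPKM in SW warm plants (log2 ratio -0.85, or -1.22 with reference gene scaling). Another leaf marker, carbonic anhydrase CA1, was called lower, at 843 FPKM in SW 2-week cold plants and 2406 FPKM in SW warm plants (-1.51). The Rubisco gene RBCS1A, also chosen as a leaf marker, was listed at 0 in both columns. None of 7 floral organ genes (such as SEP3 and AP1) and none of 6 seed storage and maturation genes reached 1 FPKM in either column. Of 5 root genes only PYK10 did, with 1.22 FPKM in SW 2-week cold plants and 26.9 FPKM in SW warm plants (log2 ratio -3.65), while IRT1 and EXPA7, which mark root epidermis, were listed at or near 0. The 8 epidermis and stomata genes all stayed within 2-fold (log2 ratios -0.59 to -0.19). Among 6 measured vein genes, XCP1 and XCP2, proteases of xylem cells, were lower (log2 ratios -1.65 and -1.67), and SUC2, the sucrose loader of the phloem, was at 0.05. Of 2 measured meristem genes, STM was lower (log2 ratio -1.26) and the other stayed within 2-fold. In whole shoots, fewer cells of a type and less RNA per cell cannot be told apart.

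All 3 CBF genes of the chromosome 4 cluster were higher in the cold. CBF2 was at 39.8 FPKM in SW 2-week cold plants and 0.436 FPKM in SW warm plants (log2 ratio 4.83), CBF3 at 51.2 FPKM in cold and 1.09 FPKM in warm (4.64), and CBF1 at 4.53 FPKM in cold and 0.0422 FPKM in warm (2.41). CBF1 was thus the least abundant of the 3 in the cold. In the order warm, 1 week and 2 weeks, CBF2 ran 0.436, 38.5 and 39.8 FPKM, so its level after 2 weeks was close to that after 1 week. Their relatives CBF4, DDF1 and DDF2 did not reach 1 FPKM in either column. Of 11 genes measured that act above CBF, only OST1, a protein kinase that stabilises the CBF activator ICE1, was called, with 25.4 FPKM in SW 2-week cold plants and 10.2 FPKM in SW warm plants (log2 ratio 1.24), and it came to 0.89 with reference gene scaling. ICE1 itself was at 41.5 FPKM in cold and 35.7 FPKM in warm, and CAMTA3, another CBF activator, at 16.7 FPKM in cold and 24 FPKM in warm.

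Most cold-regulated protectants were higher in the cold. Of 22 measured dehydrins, LEA, COR413 and related proteins, 17 were higher and none lower, with a median log2 ratio of 2.95 against 0.02 over all genes. This list was chosen for known cold-regulated genes. Of all 33 genes annotated with the words late embryogenesis, 2 were higher, 6 lower and 25 within 2-fold (median -0.18). Their summed FPKM was 3.55% of all FPKM in SW 2-week cold plants and 0.298% in SW warm plants. COR15A, a chloroplast protein that shields membranes from freezing, was at 13319 FPKM in SW 2-week cold plants, against 108 FPKM in SW warm plants (log2 ratio 6.93), and alone made up 1.29% of the cold column's FPKM and 0.0120% of the warm column's. It was the second most abundant transcript listed in the cold. COR15B, its neighbour 7 bases away, was at 3256 FPKM in cold and 60.3 FPKM in warm (5.73). The largest ratio of the whole comparison belonged to KIN1, a small hydrophilic protein, with 2199 FPKM in SW 2-week cold plants and 2.3 FPKM in SW warm plants (9.38). KIN2, which lies 892 bases from it and is close to it in sequence, was at 4343 FPKM in cold and 97.3 FPKM in warm (5.47). Reads of such close copies may have been split between them, so their sums are given too: 6543 FPKM in cold and 99.6 FPKM in warm for KIN1 with KIN2, and 16576 FPKM in cold and 168 FPKM in warm for COR15A with COR15B.

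RD29A (also LTI78) was at 1532 FPKM in SW 2-week cold plants and 8.97 FPKM in SW warm plants (log2 ratio 7.26), while its neighbour RD29B, known for its answer to abscisic acid, barely passed 1 FPKM (1.16 FPKM in cold and 0.132 FPKM in warm). The dehydrins LTI30 (1031 FPKM in cold, 2.48 FPKM in warm, log2 ratio 8.21), COR47 (1376 FPKM in cold and 81.8 FPKM in warm, 4.06) and HIRD11 (4537 FPKM in cold and 1131 FPKM in warm, 2.0) were all higher. Dehydrins did not move as one, however. ERD14 was at 795 FPKM in SW 2-week cold plants and 461 FPKM in SW warm plants (0.78), inside the 2-fold limit, and RAB18, an abscisic acid marker, was at 11 FPKM in cold and 11.4 FPKM in warm (-0.05). RAB18 had been at 71.5 FPKM after 1 week. LEA7, which was at 40.1 FPKM after 1 week, was at 0.263 FPKM after 2 weeks and 0.438 FPKM in the warm, under the 1 FPKM limit; it was picked out after its values were seen.

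**Figure D2:**
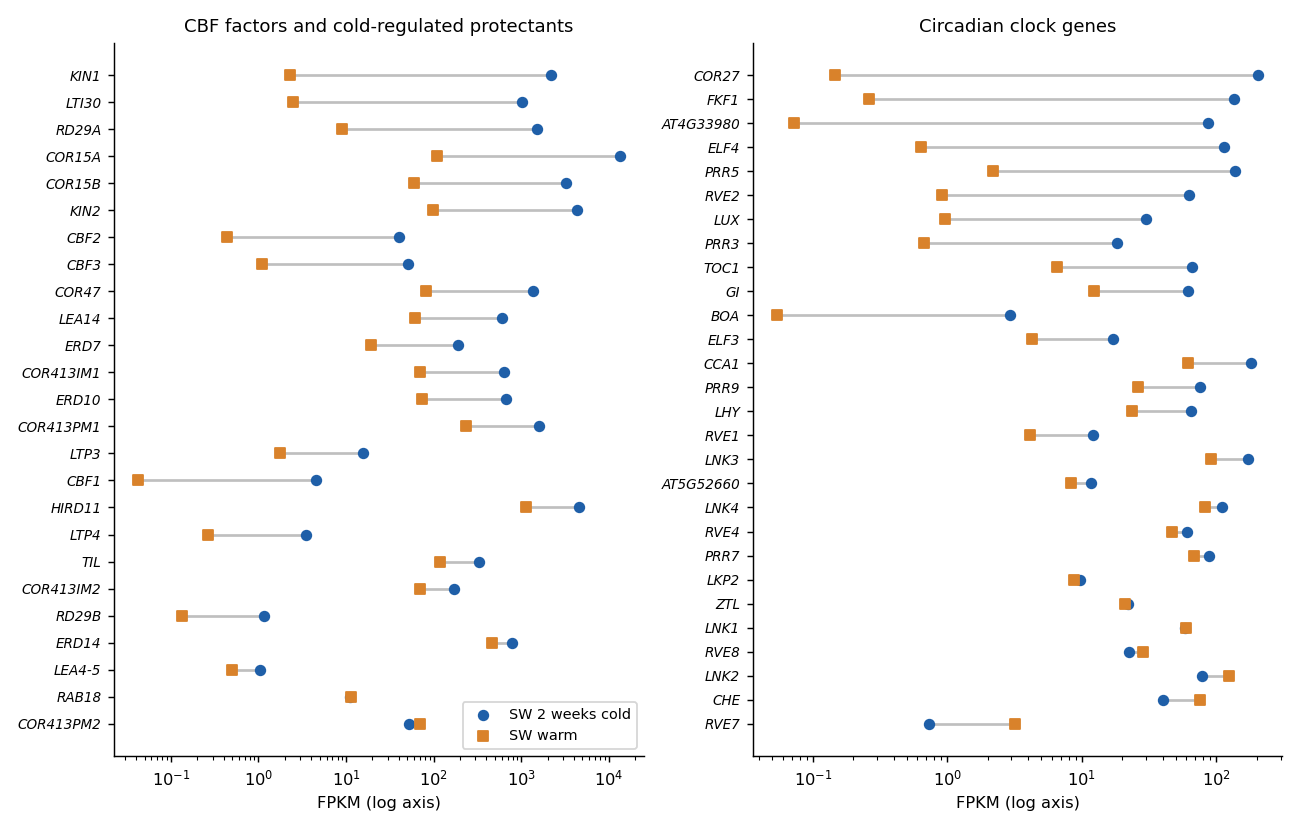
FPKM on a log axis in SW 2-week cold plants (blue circles) and SW warm plants (orange squares) for CBF factors with cold-regulated protectants (left) and for clock genes (right), sorted by log2 ratio. KIN1, LTI30, RD29A and COR15A head the left panel and COR27, FKF1 and AT4G33980 the right one, while RAB18 and LNK1 show both symbols at the same place.

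Promoter windows of 5 genes with log2 ratios above 6 are shown as illustrations only. The calls of higher and lower genes did not use promoter elements, but these 5 genes were chosen after their matches were seen. Other genes with ratios as large are not shown. Each window runs over the 250 bases before the annotated gene start in the TAIR10.1 assembly (RefSeq), written 5′ to 3′ on the gene's strand. Capitals mark, on either strand, the CRT/DRE core CCGAC (or GTCGG), the ABRE core ACGTG (or CACGT) and the evening element AAAATATCT (or AGATATTTT); CACGTG counts as a match of ACGTG on both strands. COR15A (chr2:17712331-17712580, minus strand) and RD29A (chr5:21240467-21240716, plus strand) are classic CBF targets, GOLS3 (chr1:3019389-3019638, plus strand) makes the precursor of raffinose, and FKF1 (chr1:25508389-25508638, plus strand) is a clock-linked gene with a ratio above 6. KIN1 (chr5:5209467-5209716, plus strand), with the largest ratio, is set beside them.
COR15A: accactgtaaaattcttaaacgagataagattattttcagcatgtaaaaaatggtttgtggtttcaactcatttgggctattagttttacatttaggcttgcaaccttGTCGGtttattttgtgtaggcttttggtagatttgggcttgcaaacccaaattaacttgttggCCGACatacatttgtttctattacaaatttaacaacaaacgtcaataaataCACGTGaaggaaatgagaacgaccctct
RD29A: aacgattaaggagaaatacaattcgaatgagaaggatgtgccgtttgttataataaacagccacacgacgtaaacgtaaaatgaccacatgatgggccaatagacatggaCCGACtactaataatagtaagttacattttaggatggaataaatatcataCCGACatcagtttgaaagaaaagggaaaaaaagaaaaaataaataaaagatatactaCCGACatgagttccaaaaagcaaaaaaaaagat
GOLS3: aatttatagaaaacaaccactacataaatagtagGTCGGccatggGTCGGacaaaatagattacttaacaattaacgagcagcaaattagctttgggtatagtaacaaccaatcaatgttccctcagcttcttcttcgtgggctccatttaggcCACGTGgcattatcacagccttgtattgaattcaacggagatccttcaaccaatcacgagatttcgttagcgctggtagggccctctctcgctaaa
FKF1: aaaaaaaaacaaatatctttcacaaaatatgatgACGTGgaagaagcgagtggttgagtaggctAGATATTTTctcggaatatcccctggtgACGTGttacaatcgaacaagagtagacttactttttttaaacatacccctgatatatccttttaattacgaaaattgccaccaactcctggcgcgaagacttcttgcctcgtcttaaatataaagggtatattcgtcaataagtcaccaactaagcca
KIN1: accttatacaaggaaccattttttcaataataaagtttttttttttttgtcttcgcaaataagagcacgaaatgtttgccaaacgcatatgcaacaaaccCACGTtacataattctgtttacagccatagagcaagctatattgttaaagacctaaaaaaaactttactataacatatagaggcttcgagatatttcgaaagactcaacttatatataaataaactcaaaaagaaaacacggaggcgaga

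RD29A held 3 CRT/DRE cores in its window, and COR15A and GOLS3 held 2 each. FKF1 had no CRT/DRE core but 1 evening element and 2 ABRE cores. KIN1 had neither a CRT/DRE core nor an evening element within 250 bases, only 1 ABRE core. Other strongly raised genes had none of the 3 elements in their windows, among them CIPK25 (7.53) and AT4G33980 (6.34). The COR15B window (5.73) held none either, but all except 7 of its bases lie inside the neighbouring COR15A gene. Windows were not cut at neighbouring genes. Across the genome the CRT/DRE core was found in the window of 12.0% of all 27444 nuclear protein-coding genes. It was found in 31.4% of the 102 such genes at least 8-fold higher in cold, in 16.1% of the 1193 at least 2-fold higher, in 13.3% of those within 2-fold and in 9.65% of the 1378 at least 2-fold lower. For the evening element, bound by clock MYB proteins, the share was 2.36% of all genes, 21.6% of those at least 8-fold higher, 8.13% of those at least 2-fold higher, 2.17% within 2-fold and 2.98% of those lower. The ABRE core, known from abscisic acid and light responses, was in 47.1% of windows of genes at least 8-fold higher and 22.9% of all windows, but 25.9% of lower genes had it too.

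Read the other way, 6.32% of genes with no evening element were higher in cold, 19.3% of the 446 genes with 1 and 11 of 22 genes with 2 or more. For the CRT/DRE core the shares were 6.48%, 7.70% and 11.3%, and the share of genes lower in cold ran 8.05%, 6.22% and 2.2%. The W-box core TTGAC, the site of WRKY factors, was searched too: 10.8% of genes with 2 or more matches were lower, against 7.03% of genes with none. With 500 bases these shares were 8.88% and 7.28%. Of the 22 salicylic acid defence genes described below, 9 had it within 250 bases (40.9%), against 44.9% of all windows. TGGGCC (site II), AAACCCTA (TELO-box) and GATAAG (I-box) were searched as well. With 2 or more matches, 2.34%, 0% and 9.66% of genes were lower, against 8.68%, 7.94% and 7.47% with none. With windows of 500 bases the evening element was in 25.5% and the CRT/DRE core in 46.1% of promoters of genes at least 8-fold higher, against 4.44% and 21.4% of all. Neighbouring genes that point away from each other share part of a window, so these genes are not independent of each other.

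**Figure D3:**
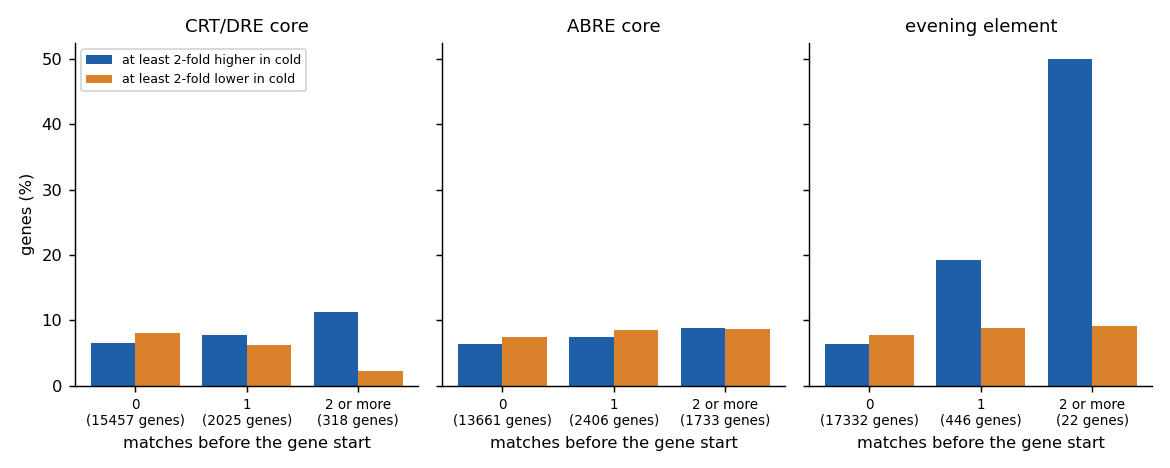
Percent of measured nuclear protein-coding genes at least 2-fold higher (blue) or lower (orange) in SW 2-week cold plants, by the number of matches in the 250 bases before the gene start, for the CRT/DRE core, the ABRE core and the evening element. The blue bars reach 19.3% with 1 evening element and 50.0% in the 22 genes with 2 or more, and change less with the other elements.

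Clock genes were mostly higher in the cold at this morning harvest. Of 28 clock genes measured, 16 were higher and 1 lower in SW 2-week cold plants, with a median log2 ratio of 1.46. COR27, a small cold-induced regulator of clock genes, was at 205 FPKM in SW 2-week cold plants and 0.145 FPKM in SW warm plants (log2 ratio 7.49). FKF1, a blue light receptor that times flowering, was at 135 FPKM in cold and 0.261 FPKM in warm (6.75), and ELF4, part of the evening complex, at 113 FPKM in cold and 0.633 FPKM in warm (6.13). LUX, the DNA-binding member of that complex, was at 30.1 FPKM in cold and 0.954 FPKM in warm, and the pseudo-response regulator PRR5 at 138 FPKM in cold and 2.18 FPKM in warm (5.45); these were named after their values were seen. In the warm most of these transcripts were thus near or under 1 FPKM at ZT4, and in the cold they were plainly present. The morning genes CCA1 (181 FPKM in cold, 62.1 FPKM in warm, 1.53) and LHY (64.8 FPKM in cold and 23.6 FPKM in warm, 1.42) were higher as well, and RVE2, a MYB relative of theirs, more so (63.1 FPKM in cold and 0.917 FPKM in warm, 5.06). ZTL (0.05) and LKP2 (0.13), relatives of FKF1, were not called. RVE7, a MYB relative of CCA1, was the 1 gene lower (0.735 FPKM in cold and 3.17 FPKM in warm, -1.27), and LNK3 the most abundant one within 2-fold (171 FPKM in cold and 91 FPKM in warm). With a single harvest time, a different level cannot be told apart from a different phase.

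Other transcription factors known from early cold gave a mixed picture, with 4 of 16 higher and 2 lower. RAP2.1, a repressor under CBF control, led at 21.6 FPKM in SW 2-week cold plants and 1.56 FPKM in SW warm plants (log2 ratio 3.14), followed by DREB2A (1.82), MYB73 (1.59) and ZAT12 (1.38). TEM2, a repressor of flowering and gibberellin genes, was lower (13.1 FPKM in cold and 43.4 FPKM in warm, -1.66), as was ERF6 (-1.35).

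Sugar metabolism genes were called in both directions. GOLS3, galactinol synthase of the cold response, was at 354 FPKM in SW 2-week cold plants and 2.16 FPKM in SW warm plants (log2 ratio 6.81), while GOLS2, the drought-linked copy, was lower at 9.02 FPKM in cold and 21.6 FPKM in warm (-1.18). Raffinose synthase RS5 was higher (37 FPKM in cold and 12.8 FPKM in warm, 1.46). In starch breakdown, 5 of 13 genes were higher and 2 lower. BAM3, the main leaf beta-amylase, was at 1563 FPKM in SW 2-week cold plants and 85 FPKM in SW warm plants (4.18), ISA3, a debranching enzyme, at 225 FPKM in cold and 15.4 FPKM in warm (3.78), and PWD, which phosphorylates starch, at 166 FPKM in cold and 22.4 FPKM in warm (2.83). SEX4, the phosphatase that removes those phosphates, was at 315 FPKM in cold and 86.5 FPKM in warm (1.85). Other beta-amylases were lower: BAM5 (0.396 FPKM in cold and 7.31 FPKM in warm, -2.57) and BAM9 (3.87 FPKM in cold and 20.1 FPKM in warm, -2.12). DPE2, which handles maltose in the cytosol, was at 108 FPKM in cold and 105 FPKM in warm.

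Among 15 genes of sucrose synthesis and sugar transport, 6 were higher and 3 lower, with 3 higher under reference gene scaling. SUS1, sucrose synthase, was at 329 FPKM in SW 2-week cold plants and 23.6 FPKM in SW warm plants (log2 ratio 3.74), and sucrose phosphate synthase SPS2F at 12.4 FPKM in cold and 2.71 FPKM in warm (1.85). SWEET17, a fructose exporter of the vacuole, was lower by far (4.98 FPKM in cold, 66.6 FPKM in warm, -3.5), and SWEET16, its relative, likewise (-1.63). Fermentation genes were raised: ADH1, alcohol dehydrogenase, was at 326 FPKM in SW 2-week cold plants and 5.78 FPKM in SW warm plants (5.59), and the pyruvate decarboxylases PDC1 and PDC2 had ratios of 3.91 and 2.53; 4 of 8 low-oxygen genes were higher and none lower, and the oxygen sensors PCO1 and PCO2 were both at -0.35. In proline synthesis P5CS2 was higher, at 448 FPKM in SW 2-week cold plants and 63.2 FPKM in SW warm plants (2.81); P5CS1, the better known stress copy, was at 325 FPKM in cold and 236 FPKM in warm (0.46), within 2-fold.

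Flavonoid enzymes were called in both directions. FLS1, flavonol synthase, was at 82.2 FPKM in SW 2-week cold plants and 16 FPKM in SW warm plants (log2 ratio 2.29), and chalcone synthase CHS, the entry enzyme, at 596 FPKM in cold and 137 FPKM in warm (2.12). MYB111, a flavonol activator, was at 39.5 FPKM in cold and 1.47 FPKM in warm (4.03). DFR and LDOX, which lead on to anthocyanin, were lower (-1.14 and -1.1, with 2.29 and 3.95 FPKM in cold against 6.28 and 9.64 FPKM in warm). In all, 6 of 19 flavonoid enzymes were higher and 2 lower, with a median of 0.12. LBD37, a repressor of anthocyanin and nitrate genes, was among the most lowered genes of the comparison (3.06 FPKM in cold, 57.7 FPKM in warm, -3.85).

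In membranes, 2 of 17 lipid genes were higher and none lower, beside 6.87% and 7.84% of all genes. ADS2, a desaturase known for chilling and freezing tolerance, was at 433 FPKM in SW 2-week cold plants and 85.9 FPKM in SW warm plants (log2 ratio 2.32). DGAT1, which makes triacylglycerol, was at 21.6 FPKM in cold and 1.23 FPKM in warm (3.34). The fatty acid desaturases FAD2 to FAD8 on the list stayed within 2-fold, with FAD2 the most abundant at 283 FPKM in cold and 268 FPKM in warm. Abscisic acid genes were called higher in 6 of 22 cases and lower in none, with a median of 0.11. The largest were the transcription factor ABF1 (88.7 FPKM in cold, 12.1 FPKM in warm, 2.77), the protein phosphatase HAI2 (2.71) and NCED3, the enzyme that limits abscisic acid synthesis (6.32 FPKM in cold and 0.651 FPKM in warm, 2.15). RD22, a drought marker, was at 435 FPKM in cold and 393 FPKM in warm.

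Ribosomal protein genes were called higher far more often than lower. Of 310 genes annotated as ribosomal proteins, 72 were higher and 1 lower, with a median log2 ratio of 0.73. Scaling touched this count: with reference gene scaling 14 were higher and the median was 0.36, and with quantile normalization 17 were higher and the median was 0.38. AT3G08520, a ribosomal protein L41 gene, was the most abundant transcript listed in the cold, at 28765 FPKM in SW 2-week cold plants and 8834 FPKM in SW warm plants (1.7). The RNA-binding protein GRP7, itself a clock output, was at 2654 FPKM in SW 2-week cold plants and 115 FPKM in SW warm plants (4.52), whereas its close copy GRP8 was at 259 FPKM in cold and 292 FPKM in warm (-0.17). The nucleolar methyltransferase FIB2 was higher (2.02) and its copy FIB1 was not called (0.03). Of 17 chaperones of the endoplasmic reticulum and heat response, none was higher and 2 were lower, beside 6.87% and 7.84% of all genes. The lower ones were HSP90.1 (0.557 FPKM in cold and 10.2 FPKM in warm, -2.84) and the heat factor HSFA2 (-1.07, or -0.95 with quantile normalization).

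**Figure D4:**
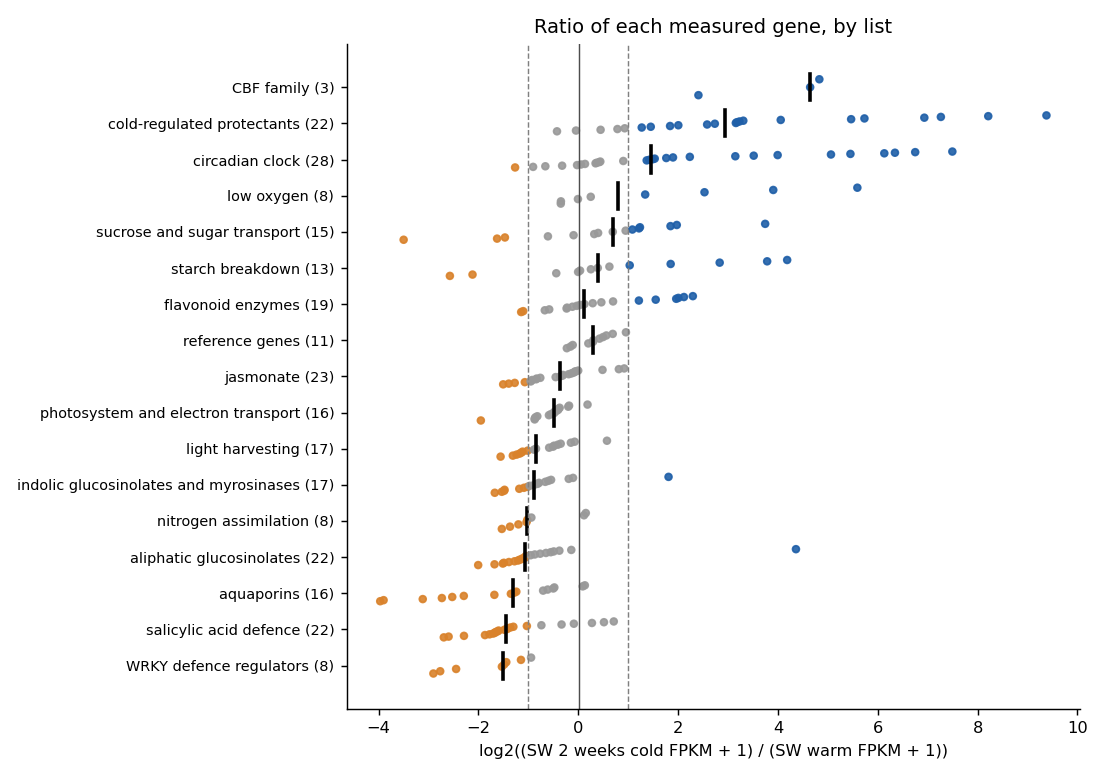
Each point is 1 gene's log2 ratio of SW 2-week cold over SW warm, grouped by list with the number of genes in parentheses; black bars are list medians, dashed lines mark 2-fold and the solid line is the median of all genes. Protectants and clock genes spread far to the right with medians of 2.95 and 1.46, reference genes stay within 2-fold, and aquaporins, salicylic acid and WRKY genes lie to the left with medians of -1.32, -1.45 and -1.51.

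Some photosynthesis genes were lower in the cold, and none of these lists had a higher gene. Of 17 light-harvesting genes with a ratio, 7 were lower and none higher (median -0.85). Of 16 photosystem and electron transport genes 1 was lower (median -0.48), or 5 with reference gene scaling. Over all genes 7.84% were lower and 6.87% higher, so the photosystem count as deposited is not above the general share. At that share, lists this small would hold few higher genes. The antenna gene LHCB2.3 was at 593 FPKM in SW 2-week cold plants and 1748 FPKM in SW warm plants (log2 ratio -1.56) and LHB1B2 at 3408 FPKM in cold and 8039.9 FPKM in warm (-1.24). LHCA5, a minor antenna protein of photosystem I, was not called (249 FPKM in cold and 167 FPKM in warm, 0.57). PSAD2, a photosystem I subunit, was the 1 lower photosystem gene (459 FPKM in cold, 1778 FPKM in warm, -1.95), against -0.87 for its copy PSAD1. Among Rubisco small subunit genes, RBCS3B was at 329.9 FPKM in SW 2-week cold plants and 5817 FPKM in SW warm plants (-4.14), RBCS2B at 271 FPKM in cold and 3892 FPKM in warm (-3.84), and RBCS1B, the third copy of that tandem group, at 944 FPKM in cold and 1494 FPKM in warm (-0.66). These copies are nearly alike in sequence, so reads may have been split among them.

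Of 14 genes of carbon fixation with a ratio, 3 were lower, or 6 with reference gene scaling. The others were within 2-fold, and GAPA, the most abundant of those, was at 2949.5 FPKM in SW 2-week cold plants and 1809 FPKM in SW warm plants (log2 ratio 0.71). Carbonic anhydrase CA1 was lower (843 FPKM in cold and 2406 FPKM in warm, -1.51). Of 23 photoprotection and antioxidant genes, 4 were higher, 1 was lower and 18 stayed within 2-fold (median 0.07), and with reference gene scaling 3 were higher and 4 lower. ELIP1 and ELIP2, light-stress proteins of the thylakoid, were at 496 and 83.6 FPKM in SW 2-week cold plants and 27.9 and 3.52 FPKM in SW warm plants (4.1 and 4.22). Of 12 chlorophyll synthesis genes, 2 were higher, none lower and 10 within 2-fold (median 0.09). The higher ones were PORA (161 FPKM in cold and 14.7 FPKM in warm, 3.37) and PORB (1.48). CRD1, the most abundant within 2-fold, was at 1486 FPKM in cold and 2035 FPKM in warm (-0.45). The peroxisomal catalase CAT2 was lower (326 FPKM in cold, 935 FPKM in warm, -1.52).

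Some photosynthesis genes could not be compared. Of the 18522 genes, 97 were listed at exactly 0 in 1 of the columns and got no ratio, 28 of them with at least 10 FPKM in the other column. LHCA4 was listed at 4957 FPKM in SW 2-week cold plants and at 0 in SW warm plants. Rubisco activase RCA was at 2682 FPKM in SW 2-week cold plants and at 0 in SW warm plants. In IT warm plants both were at 0 too, against 3294 FPKM (LHCA4) and 2650 FPKM (RCA) in IT 2-week cold plants. Whether a 0 there is a failed estimate was not tested. LHCB1.1, LHCB1.2, LHCB1.3 and RBCS1A were listed at 0 in both columns. Of the 28, 13 were at 0 in cold and 15 in warm, and 17 were microRNA, snoRNA or tRNA genes.

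Most defence genes of the salicylic acid pathway were lower in the cold. Of 22 measured, 16 were lower and none higher in SW 2-week cold plants, with a median log2 ratio of -1.45, and of 8 listed WRKY defence regulators 7 were lower (median -1.51). The list was chosen for defence: of all 48 genes annotated with the word WRKY, 11 were lower, 1 higher and 36 within 2-fold (median -0.24). DMR6, a salicylic acid hydroxylase that limits immunity, was at 12 FPKM in SW 2-week cold plants and 82.9 FPKM in SW warm plants (log2 ratio -2.7). NIMIN1, which binds the receptor NPR1, was at 2.3 FPKM in cold and 19 FPKM in warm (-2.6), and ALD1, the entry to pipecolate, at 0.0755 FPKM in cold and 4.26 FPKM in warm (-2.29). ICS1, the synthase that makes most salicylic acid, was at 8.01 FPKM in cold and 31.9 FPKM in warm (-1.87). WRKY70 was at 20 FPKM in SW 2-week cold plants and 156 FPKM in SW warm plants (-2.9), WRKY46 at 3.4 FPKM in cold and 28.9 FPKM in warm (-2.77) and WRKY38 at 1.16 FPKM in cold and 10.8 FPKM in warm (-2.45). The marker PR1, an antimicrobial protein, did not follow: it was at 870.02 FPKM in SW 2-week cold plants and 719.8 FPKM in SW warm plants (0.27).

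In IT plants both lists gave other counts. Of 23 salicylic acid genes with a ratio there, 5 were higher and none lower after 2 weeks of cold (median 0.28), where 7.28% of all IT genes were higher and 6.67% lower. Of the 8 WRKY regulators, 2 were higher and 1 lower in IT (median -0.30). PR1 was at 11644 FPKM in IT 2-week cold plants and 867 FPKM in IT warm plants (log2 ratio 3.75). PR2, a glucanase, was at 105 FPKM in SW 2-week cold plants and 333 FPKM in SW warm plants (-1.66), but at 2001 FPKM in IT 2-week cold plants and 409.9 FPKM in IT warm plants (2.28). FMO1, which makes the mobile immune signal from pipecolate, had ratios of -1.6 in SW and 1.6 in IT, and WRKY53 of -1.44 and 1.28. In the SW series over time, PR2 ran 333, 491 and 105 FPKM in warm, 1-week and 2-week plants, and PR1 719.8, 1246 and 870.02 FPKM. The difference between ecotypes could not be tested without values per library.

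**Figure D5:**
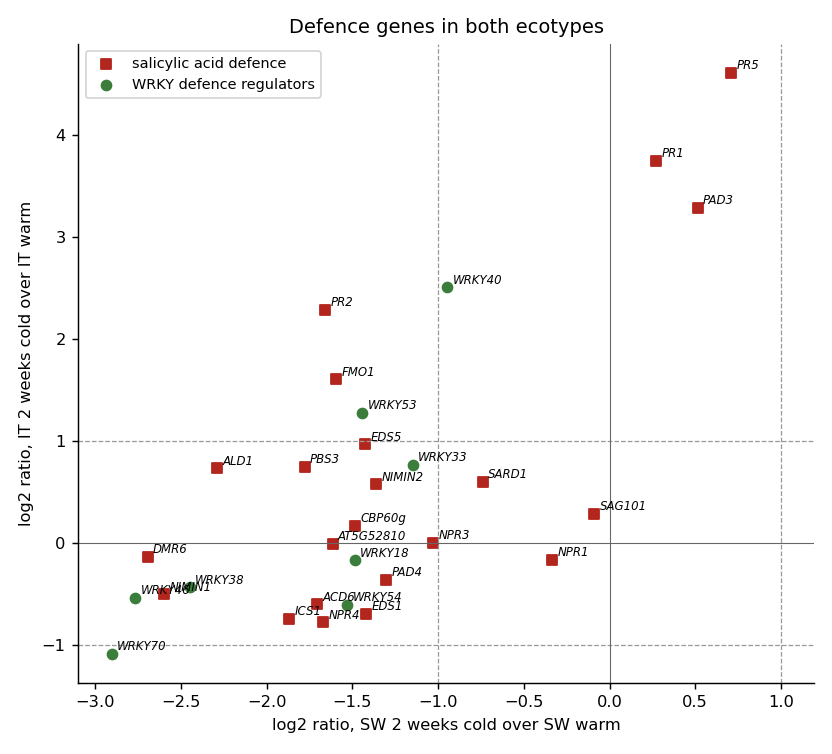
Log2 ratios of 2-week cold over warm for salicylic acid genes (squares) and WRKY factors (circles), in SW plants on the horizontal and IT plants on the vertical axis, with dashed lines at 2-fold. Most points lie left of -1 in SW; PR2, FMO1 and WRKY53 are left of -1 in SW and above 1 in IT, and PR1, PR5 and PAD3 are above 3 in IT and within 2-fold in SW.

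Families were also gathered by words in the annotation. Of 65 genes annotated as receptor-like protein kinases, 25 were lower and none higher (median -0.74), of 51 cysteine-rich proteins 20 were lower and 3 higher, and of 110 disease resistance proteins 17 were lower and none higher (median -0.47); the last count was 34 with reference gene scaling and 32 with a pseudocount of 0.1 FPKM. CRK4, a cysteine-rich receptor kinase, had the lowest ratio in the first 2 of these families, which share members, at -3.37. A run of 6 adjacent lower genes on chromosome 1 (chr1:27429916-27443859 in TAIR10.1) holds TIR with its neighbours, at ratios from -1.37 (AT1G72890) to -2.62 (AT1G72910). Adjacent genes shared a lower call more often than genes at large: 17.8% of genes that follow a lower gene were lower too, against 7.68% of all followers, and 10.8% against 6.69% for higher genes. The longest run of higher genes was the CBF cluster with its flanks (chr4:13009690-13027484), where ABCB28 (1.01) and RS40 (1.46) lie on either side of the 3 CBF genes. Neighbours in such runs are often copies of each other, and their reads may have been shared.

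Glucosinolates, the mustard oil precursors of the cabbage family, had lower synthesis genes. Of 22 aliphatic pathway genes, 13 were lower and 1 higher (median log2 ratio -1.06), and of 17 indolic and breakdown genes 7 were lower and 1 higher (median -0.88; 12 lower with reference gene scaling). SOT17, a sulfotransferase of the last step, was at 27.9 FPKM in SW 2-week cold plants and 115 FPKM in SW warm plants (-2.01), and AOP2, which modifies the side chain, at 351 FPKM in cold and 1003 FPKM in warm (-1.51). The S-oxygenases split: FMOGSOX3 was lower (35.7 FPKM in cold and 116 FPKM in warm, -1.68) and FMOGSOX4 higher (82.9 FPKM in cold, 3.08 FPKM in warm, 4.36). SOT16 (-1.67) and UGT74B1 (-1.53) led the drop on the indolic side, and ESM1, a modifier of hydrolysis, was higher (118 FPKM in cold and 33 FPKM in warm, 1.81). Among jasmonate genes, 4 of 23 were lower and none higher (median -0.36; 9 lower with reference gene scaling), with JAZ6 (-1.51) and JAZ9 (-1.39), repressors of jasmonate responses, in front. LOX2, the most abundant one, was at 671 FPKM in cold and 722 FPKM in warm.

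Most water channels were lower in the cold. Of 16 aquaporins measured, 10 were lower and none higher, with a median log2 ratio of -1.32. The vacuolar channel TIP1;2 was at 42.8 FPKM in SW 2-week cold plants and 653 FPKM in SW warm plants (-3.9), TIP2;2 at 0.657 FPKM in cold and 24.9 FPKM in warm (-3.97) and TIP2;1 at 31.3 FPKM in cold and 214 FPKM in warm (-2.73). Of the channels of the plasma membrane, PIP2;2 was at 10.2 FPKM in cold and 96.6 FPKM in warm (-3.12), while PIP1;4 (0.13) and PIP2;5 (0.09) had log2 ratios near 0. Nitrate assimilation was lower too, with 5 of 8 genes: nitrate reductase NIA2 was at 91.7 FPKM in SW 2-week cold plants and 267 FPKM in SW warm plants (-1.53), NIA1 at -1.37 and the transporter NRT1.1 at -1.2.

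Growth genes were called in both directions, most of them lower in the SAUR family. Of 48 SAUR genes, small auxin-induced proteins of cell expansion, 27 were lower and 2 higher (median log2 ratio -1.22), and AT1G72430 was at 2.42 FPKM in SW 2-week cold plants and 62.5 FPKM in SW warm plants (-4.22). The largest drop of the comparison belonged to GASA6, a gibberellin-regulated peptide, at 8.03 FPKM in SW 2-week cold plants and 277 FPKM in SW warm plants (-4.94). Of 14 cell wall growth genes, 5 were lower and 2 higher (median -0.29), and of 18 genes annotated as expansins 5 were lower and 2 higher (median 0.04). The expansin EXPA8, which loosens cell walls, was at 3.33 FPKM in cold and 52.5 FPKM in warm (-3.63) and EXPA1 at 25.1 FPKM in cold and 121 FPKM in warm (-2.23), while EXPA10 (1.13, or 0.77 with reference gene scaling) and XTH33, a wall-modifying enzyme (1.76), were higher. Of 20 light signalling genes, 4 were lower and 1 higher (median -0.02). The light-regulated factors PIF4 (21.1 FPKM in cold and 60.2 FPKM in warm, -1.47), PIF1 (-1.34) and PIF5 (-1.07) were lower, as was the shade marker ATHB2 (-1.79). Cuticle genes KCS1 (8.57 FPKM in cold and 52.2 FPKM in warm, -2.48) and CER1 (-1.51) were lower among 8, or 6 with reference gene scaling. Of 13 cell division genes only CYCD3;1 was called (6.86 FPKM in cold and 14.8 FPKM in warm, -1.01, or -0.98 with quantile normalization), and of 7 cytokinin response regulators none was.

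Flowering genes bear on vernalization, the release from winter that works through FLC. FLC, the repressor, was at 105 FPKM in SW 2-week cold plants and 167 FPKM in SW warm plants, a log2 ratio of -0.67 that stays inside the limit and passes it with reference gene scaling (-1.04). Over time it ran 167, 176 and 105 FPKM in warm, 1-week and 2-week plants. VIN3, the cold-induced protein that starts FLC silencing, was at 3.27 FPKM in SW 2-week cold plants and 0.00458 FPKM in SW warm plants (2.09), with 1.67 FPKM after 1 week. Of 4 measured FLC and MAF repressors, 1 was higher and 3 were within 2-fold. The higher one was MAF3, a relative of FLC (78.6 FPKM in cold and 22.8 FPKM in warm, 1.74). Of 20 other flowering regulators measured, VIN3 among them, 4 were higher, 1 lower and 15 within 2-fold (median 0.12). SOC1, which promotes flowering, was at 36.3 FPKM in SW 2-week cold plants and 4.07 FPKM in SW warm plants (2.88), AGL19 at 13 FPKM in cold and 2.4 FPKM in warm (2.04), and the floral signal FT did not reach 1 FPKM in either column. The lower one was SPL3 (6.10 FPKM in cold and 14.1 FPKM in warm, -1.09).

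Several of the largest ratios belong to genes outside these groups. AT1G69140, for which the annotation used here gives no protein product, was at 638 FPKM in SW 2-week cold plants and 0.0589 FPKM in SW warm plants (log2 ratio 9.24), and at 2.19 FPKM in IT 2-week cold plants. CIPK25, a protein kinase of calcium signalling, was at 281 FPKM in cold and 0.528 FPKM in warm (7.53) in SW. The uncharacterized AT1G16850 (245 FPKM in cold and 0.0776 FPKM in warm, 7.83) and AT4G18422 (392 FPKM in cold and 0.823 FPKM in warm, 7.75), the PB1 domain gene AT1G70640 (6.84) and the salt and cold responsive AT4G30650 (1475 FPKM in cold and 16.2 FPKM in warm, 6.43) complete the top. At the other end stood AT3G24100, of the SERF family (1.93 FPKM in cold, 48.5 FPKM in warm, -4.08), AT4G33666 (-3.89), the leucine-rich repeat kinase AT1G35710 (-3.87), AT3G26510 (-3.76), AT5G25260 (-3.63) and the lectin JAL23 (6.08 FPKM in cold and 86.2 FPKM in warm, -3.62). Metallothionein MT1A, the most abundant transcript listed in the warm, was at 10947 FPKM in SW 2-week cold plants and 20678 FPKM in SW warm plants (-0.92), within 2-fold as deposited and past it with reference gene scaling (-1.29).

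Set beside IT plants after the same 2 weeks, which share no plants with SW, the calls overlapped in part. Of 17858 genes with a ratio in both, 1214 were higher in SW and 1240 in IT, and 679 were higher in both, which is 55.9% of the SW and 54.8% of the IT genes. For lower genes the numbers were 1397 in SW, 1179 in IT and 700 in both, 50.1% and 59.4%. Genes called in opposite directions numbered 7 higher in SW and lower in IT, and 24 lower in SW and higher in IT. Of 22 protectants, 17 were higher in SW (median 2.95) and 9 in IT (median 0.75, with 1 lower), with COR15A at 13319 FPKM in SW 2-week cold plants and 3062 FPKM in IT 2-week cold plants, and RD29A at 1532 FPKM in SW 2-week cold plants and 185 FPKM in IT 2-week cold plants. The clock list had 16 of 28 genes higher in SW (median 1.46) and 17 of 28 in IT (median 1.36). Of the chaperones of the endoplasmic reticulum and heat response, none of 17 was higher in SW and 10 of 17 in IT, with BIP2, a folding chaperone, at 81 FPKM in SW 2-week cold plants and 57.2 FPKM in SW warm plants, and at 360.1 FPKM in IT 2-week cold plants and 84.9 FPKM in IT warm plants.

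After 1 week the SW plants, compared with the same warm plants, had 8.12% of 18616 genes higher and 6.45% lower. Since both comparisons use the warm column, only their own values are given. Over the genes measured in each, the protectant medians were 2.75 after 1 week and 2.95 after 2 weeks, and those of the clock 1.52 and 1.46. Salicylic acid genes had medians of -0.83 and -1.45, aliphatic glucosinolate genes -0.24 and -1.06, jasmonate genes 0.22 and -0.36, and plant defensin and ethylene genes 0.66 and -0.43. The 15 genes annotated with the word defensin did not show that drop, with medians of 0.43 and 0.53. After 2 weeks 6 of these 15 were higher and 2 lower, beside 6.87% and 7.84% of all genes. The camalexin enzyme PAD3 ran 6.39, 100.1 and 9.55 FPKM in warm, 1-week and 2-week plants, and the chitinase PR3 42, 70.5 and 13 FPKM; both were picked after their values were seen.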

How the data were processed

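The deposited table gives FPKM per gene and group, combined by the authors from 3 libraries each; TopHat 1.4.1, Cufflinks 2.1.1, Cuffdiff and the TAIR10 build are named, per the submitters' processing notes, with order and settings not given in the sources used here. Depth is unknown. From the FPKM values log2((cold + 1)/(warm + 1)) was computed for genes with at least 1 FPKM in either column (Python 3.11.15, pandas 2.3.3, numpy 2.4.6, matplotlib 3.10.9). A 0 in either column gave no ratio. Names, families and promoters came from RefSeq TAIR10.1, matched by locus for 32813 of 33557 genes (97.8%). The 51 gene lists hold 725 loci. The members and lists were chosen with earlier results of these data known. Candidates for naming were 14 fixed cold and flowering genes, the 15 largest ratios each way with at least 5 FPKM and the 10 most abundant genes per column. Up to 4 called members each way and the most abundant uncalled one per list, and abundant genes at 0, were candidates too. Not all candidates are named in the text, and further members of a list were added after their values were seen. The ratio script was tested on simulated data. Alternatives were pseudocounts of 0.1 and 0.25 FPKM, no filter or 5 FPKM, 3 scalings, zeros kept, and protein-coding genes only.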

Additional observations from a re-analysis of the deposited data

Results flagged for a closer look

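Genes of the lists that were at least 2-fold lower in SW and at least 2-fold higher in IT after 2 weeks of cold numbered 4, and the difference between the ecotypes was not tested, since each group has 1 combined value. PR2 had log2 ratios of -1.66 in SW and 2.28 in IT. For FMO1 the values were -1.60 in SW and 1.60 in IT. The senescence marker SAG13 was at -1.84 in SW and 1.08 in IT, with 17.7 FPKM in SW 2-week cold plants and 65.7 FPKM in SW warm plants, and 291 FPKM in IT 2-week cold plants and 137 FPKM in IT warm plants. WRKY53 stood at -1.44 in SW and 1.28 in IT.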

How the results depend on the processing

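No paired analysis was possible because the table holds 1 combined value per group and no column per library; for the same reason no replicate could be left out. Of 10 counts and shares over 9 alternatives, 77 of 90 values stayed within 1.5 times. With reference gene scaling 618 genes were higher and 2429 lower. Genes higher in both SW and IT numbered 387 in place of 679, but only SW was scaled and the IT calls stayed as deposited. In this setting 3 lists had a median of 0.5 or more and 20 of -0.5 or less, in place of 5 and 10. For families the numbers were 0 and 15, in place of 2 and 3. Families at 0.5 or more came to 1 with no filter, with upper-quartile scaling and with quantile normalization, and those at -0.5 or less to 5 with a pseudocount of 0.1 FPKM and 5 with upper-quartile scaling. A filter of 5 FPKM gave 8 lists at 0.5 or more. No list, family or named gene that was called changed sign; of 2069 named gene ratios over the alternatives, 25 lost and 14 gained the 2-fold call. Upper-quartile scaling of 18398 genes gave 1088 higher and 1577 lower. The depth and the spread between libraries, which set what differences can be trusted, are unknown, and ratios of genes near 1 FPKM are the least certain.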

Other observations

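Ferritin genes, which store iron in chloroplasts, were not described above. FER3 was at 251 FPKM in SW 2-week cold plants and 54.6 FPKM in SW warm plants (log2 ratio 2.18), while FER1 was at 384 FPKM in cold and 269 FPKM in warm (0.51) and FER4 at 131 FPKM in cold and 105 FPKM in warm (0.31). FRO3, a ferric chelate reductase, was lower (1.01 FPKM in cold, 5.06 FPKM in warm, -1.59). Among superoxide dismutases FSD2 (78.2 FPKM in cold and 19 FPKM in warm, 1.99) and MSD1 (464 FPKM in cold and 212 FPKM in warm, 1.13) were higher. FSD1, the most abundant, was at 1429 FPKM in cold and 1360.2 FPKM in warm (0.07).

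Of 11 genes of dark and sugar starvation, 2 were lower, 1 was higher and 8 stayed within 2-fold, and with a pseudocount of 0.1 FPKM 6 were lower and 2 higher. The higher one was BCAT2, an aminotransferase of branched-chain amino acids (18.6 FPKM in cold and 4.39 FPKM in warm, 1.87). Trehalose phosphate synthase TPS8 was at 3.9 FPKM in SW 2-week cold plants and 31.5 FPKM in SW warm plants (log2 ratio -2.73), and TPS11 at 3.45 FPKM in cold and 10.2 FPKM in warm (-1.33). Sulfur limitation genes were lower in 4 of 13 cases and higher in none, with SDI1 at 2.61 FPKM in SW 2-week cold plants and 11.6 FPKM in SW warm plants (-1.8). AT2G25510, an uncharacterized gene among the 10 most abundant in the cold, was at 8524 FPKM in SW 2-week cold plants and 4895 FPKM in SW warm plants, and at 27.9 FPKM in IT 2-week cold plants and 16.2 FPKM in IT warm plants.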
